A study of Rattus norvegicus with 2 samples.

Results

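The genes described here are 8 of the machinery by which cells show peptides on major histocompatibility complex (MHC) class I molecules: B2m, RT1-CE4, RT1-S3, Tap1, Tap2, Tapbp, Nlrc5 and Erap1, out of 15164 gene symbols that could be matched to probes. B2m and RT1-CE4 were chosen on their low signal with melatonin, and the others for their role in the same pathway, so every melatonin over control ratio below is a description without a test. Each probe was named through its RefSeq accession. This matched 6 of the 8 members, each to 1 probe printed as 1 spot, and gave no probe for Nlrc5 or Erap1, for which no value is given. Of the 6, 5 were well above background on both arrays and Tap1 on the control array alone.

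A class I molecule is a polymorphic heavy chain held together with the light chain β2-microglobulin, the product of B2m, and a short peptide. Peptides cut by the proteasome are pumped into the endoplasmic reticulum by the transporter made of Tap1 and Tap2, trimmed there by the aminopeptidase Erap1, and loaded with the help of tapasin, the product of Tapbp. Interferons raise the genes of this pathway through response elements in their promoters, and the transactivator Nlrc5 acts on class I genes and B2m. In the rat the MHC is called RT1, and it holds many closely related class I heavy chain genes whose number and sequence vary between strains.

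The cells were primary rat dental papilla cells, the tooth mesenchyme from which dentin-forming odontoblasts arise, taken at postnatal days 1 to 3 and used at passages 3 to 4. Both groups were held for 3 days in odontogenic induction medium (OS) with 8% serum. The medium held 0.1 mM of the glucocorticoid dexamethasone, the phosphate donor β-glycerophosphate at 10 mM, and 0.2 mM ascorbic acid. The control group had OS alone (0 nM melatonin) and the treated group OS with 10 nM melatonin. Each group was read by 1 single-colour expression array (n = 1), both with the same slide number, so no value has a replicate error and each ratio compares these 2 arrays. The rat strain, and whether the cultures shared animals or were pooled, are not given in the sources used here.

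Signals are given as the scanner software's background-subtracted intensity with its error estimate for that spot, and ratios after dividing each array by the 75th percentile of its probes, 428 for OS and 329 for melatonin. Over 8231 genes measured on both arrays the log2 ratio of melatonin over OS had a median of 0.039 and an SD of 0.29. Probes printed 10 times gave a median SD of 0.16 between spots, a technical error only. Over 13533 probes printed once, as the member probes were, and measured on both arrays, the log2 ratio had an SD of 0.38. Of the listed papilla mesenchyme markers 15 of the 15 with a probe were well above background on both arrays, with a median log2 ratio of 0.015.

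The promoters of the 6 members with a probe are shown first, since interferon response elements and NF-κB sites in them are the known control points of the pathway. The sequences are RefSeq promoters of assembly GRCr8, on the strand of the gene, cut to the matches with 12 bases on either side. Capitals mark matches, on either strand, to the interferon response core GAAANNGAAA or to the NF-κB consensus. Of 27457 rat promoters of the same 300 bases, 3.77% hold the first and 7.6% the second. The windows lie at chr3:129549168-129549214 (plus strand) for B2m, chr20:3509328-3509362 (minus) for RT1-CE4, chr20:2675404-2675437 (plus) for RT1-S3, chr20:4668577-4668676 (minus) for Tap1, chr20:4652316-4652349 (minus) for Tap2 and chr20:4967876-4967950 (minus) for Tapbp.
B2m: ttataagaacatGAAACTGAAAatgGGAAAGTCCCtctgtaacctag
RT1-CE4: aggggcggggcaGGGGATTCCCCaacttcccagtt
RT1-S3: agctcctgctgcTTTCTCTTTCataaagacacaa
Tap1: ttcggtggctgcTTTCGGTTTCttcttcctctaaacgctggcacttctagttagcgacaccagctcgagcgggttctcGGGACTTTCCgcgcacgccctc
Tap2: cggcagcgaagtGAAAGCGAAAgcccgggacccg
Tapbp: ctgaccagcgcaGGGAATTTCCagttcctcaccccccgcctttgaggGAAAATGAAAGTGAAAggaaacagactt

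The interferon core was thus found in 5 of the 6 promoters, B2m, RT1-S3, Tap1, Tap2 and Tapbp, where Tapbp held 2 overlapping matches. In B2m it lay 150 to 141 bases before the start, 3 bases from the NF-κB match, and in Tap2 41 to 32 bases before it. The RT1-CE4 promoter had no match to it within its 300 bases. Only this exact pattern was searched, so an interferon element with other letters or spacing would be missed. The NF-κB consensus was found in 4, RT1-CE4 with a palindrome that matches on both strands, B2m, Tap1 and Tapbp. The CCAAT box, which 37.7% of promoters hold, was found in B2m, RT1-CE4 and RT1-S3, and TGACG, the core of the cyclic AMP response element (22% of promoters), in B2m. A match of letters is not a measured binding site.

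Among the members, the heavy chain and light chain genes were lower with melatonin and Tap2 and Tapbp were near equal. RT1-CE4 was 3.86-fold lower, B2m 1.71-fold lower and RT1-S3 1.52-fold lower, while Tap2 was 1.06-fold higher and Tapbp 1.1-fold lower. Of the 5 measured members, 1 was at least 2-fold lower, against 0.705% of all measured genes, and 3 at least 1.5-fold lower, against 2.64%. None was 1.5-fold higher, which 2.03% of all genes were. The ratio was below 0 on the log2 scale for 4 of 5, and for 42.4% of all genes. Since B2m and RT1-CE4 were picked on these ratios, and the pathway with them, the shares are printed for scale and nothing is read from them.

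RT1-CE4 encodes a class I heavy chain of the RT1-C/E region. Its probe (A_44_P440514) gave a signal of 664 ± 66.5 with OS and 132 ± 14.8 with melatonin. After scaling, its log2 signals were 0.63 and -1.31 and their difference -1.95, with a software error of 0.22. The melatonin signal was the low one, as the choice of this gene fixed, and the error covers the reading of 1 spot and not the spread between cultures. As a description, the ratio stood at rank 6 from the lowest of 8231 genes. The raw spot medians, before any background step, were 780.5 and 205.5 over local backgrounds of 22 and 17. The 33 measured probes printed nearest to this spot (up to 6 rows and 3 columns away) had a median log2 ratio of -0.099.

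B2m encodes the light chain shared by all class I molecules. Its probe (A_64_P092718) read 14989.8 ± 1499 with OS and 6723.6 ± 672.4 with melatonin, unsaturated on both arrays. The scaled log2 signals were 5.13 and 4.35, a difference of -0.78 with a software error of 0.20. B2m too was chosen for this low signal, and its ratio stood at rank 115 of all genes. The 30 nearest measured spots had a median of -0.18. B2m is also used as a reference gene for normalization in other assays. On these arrays 14 other reference genes had a median log2 ratio of -0.016 and ranged from -0.88 (Eef1a1) to 0.47 (Tfrc).

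RT1-S3 lies between RT1-N3 and RT1-T24-4 in the GRCr8 gene order, and its synonym H2-T23 is the mouse gene for Qa-1, a nonclassical heavy chain. Its probe (A_44_P128151) read 824.6 ± 82.6 with OS and 417.4 ± 42.2 with melatonin, or 0.95 and 0.34 on the scaled log2 scale. The log2 ratio was -0.60 with a software error of 0.21. The ratio stood at rank 205 of all genes, and the 20 nearest measured spots had a median of -0.032. Of 1614 probes printed once with a mean log2 signal within 0.5 of this one, 90 had a lower ratio. The central 95% of their ratios ran from -0.88 to 0.69, so RT1-S3 lay inside that range.

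**Figure D1:**
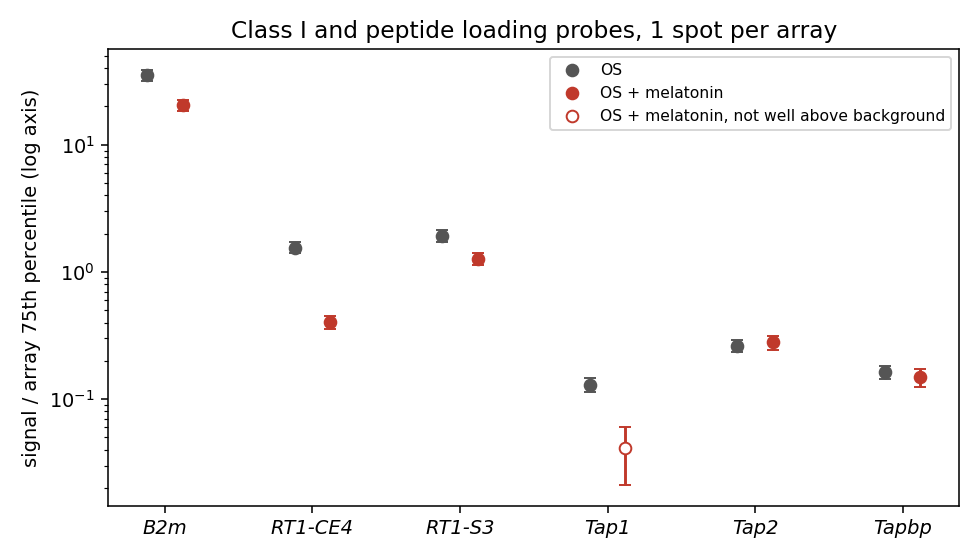
Signal of the 6 member probes with OS (grey) and with melatonin (red), each divided by that array's 75th percentile, on a log axis. Points are 1 spot each, bars are the scanner software's error and the open point is not well above background. The points of RT1-CE4, B2m and RT1-S3 are lower with melatonin, the bars of Tap2 and Tapbp overlap, and the bars leave out the spread between cultures. Tap1 has only a bound on the melatonin array.

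The transporter genes gave unlike readings. Tap1, the first subunit of the peptide transporter (probe A_64_P032208), read 55.5 ± 7.22 with OS, where it was well above background, and 13.45 ± 6.52 with melatonin, where it was not. Set against the dimmest signal called well above background on the melatonin array (29.65 before scaling), Tap1 was at least 1.44-fold lower. Tap2, the other subunit (probe A_64_P012977), read 112.9 ± 12.1 and 91.59 ± 11.04, which after scaling were -1.92 and -1.84. Its log2 ratio of 0.08 was smaller than its software error of 0.23. Tap1 and Tap2 flank Psmb8 in the GRCr8 gene order, and Psmb9 follows Tap1. Psmb8 did not pass the background limit with OS or with melatonin, and Psmb9, at -2.19 and -2.14 on the scaled log2 scale, had a ratio of 0.05.

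Tapbp, the tapasin gene (probe A_42_P698972), read 70.0 ± 8.57 with OS and 48.9 ± 8.15 with melatonin. Its log2 ratio was -0.14 with a software error of 0.30 and turned to 0.20 under normexp background correction, so no direction is given. Tap1, Tap2 and Tapbp were dim spots, and the error of a dim spot is a larger part of its signal: 0.23 and 0.30 on the log2 scale for Tap2 and Tapbp, against 0.20 for B2m.

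**Figure D2:**
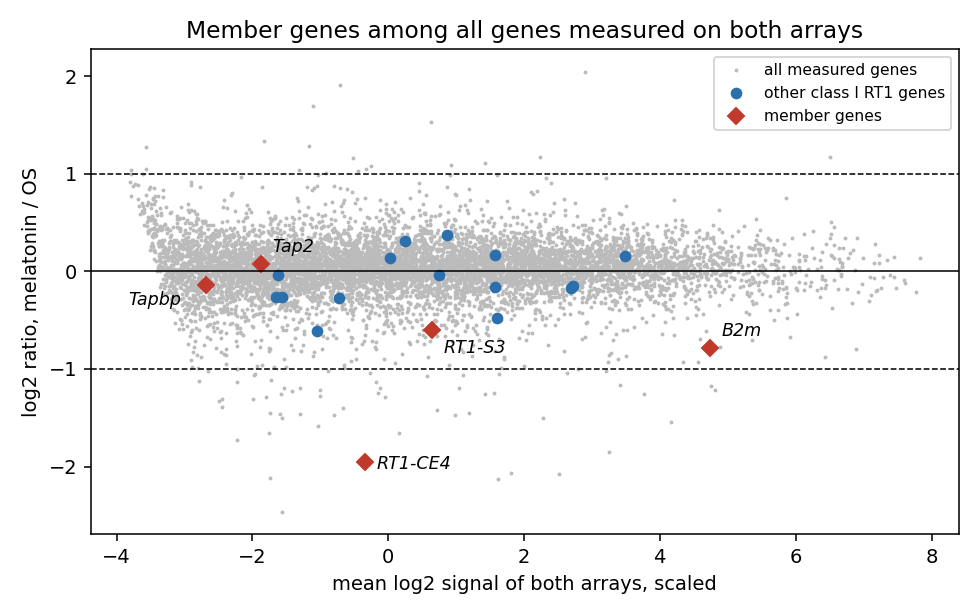
Log2 ratio of melatonin over OS against the mean scaled log2 signal for 8231 genes measured on both arrays (grey), the 15 other class I RT1 genes (blue) and the 5 measured members (red). Dashed lines mark 2-fold. RT1-CE4 lies at -1.95, below every blue point, B2m at -0.78 and RT1-S3 at -0.60, while Tap2 and Tapbp lie near 0.

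The other class I heavy chain genes had ratios closer to 0 than RT1-CE4. The reference gene list holds 52 such RT1 symbols, of which 27 had a probe, and 15 were well above background on both arrays, 2 (RT1-CE15 and RT1-N3) on the OS array alone and 10 on neither. The 15 ranged from -0.61 to 0.37 in log2 ratio with a median of -0.15, against 0.039 for all genes. Of these, 10 lay below 0, against 42.4% of all genes, 1 was at least 1.5-fold lower, against 2.64%, and none was 1.5-fold higher, against 2.03%. The last 2 counts are near the shares of all genes. With dim probes kept, the median of the 27 genes was 0.14 and that of all genes 0.16. Class I heavy chains are near-identical over long stretches and differ between strains, so a probe may read several of them, and each ratio belongs to the probe.

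The classical RT1-A genes, which present peptides to cytotoxic T cells, did not go together. RT1-A1 was read by 2 probes, at 2497 ± 250 and 2208 ± 221 for the dimmer and at 8259.9 ± 826 and 6853.9 ± 685.4 for the brighter, with log2 ratios of 0.20 and 0.11. RT1-A2 read 1528 ± 153 and 843.7 ± 84.6, a ratio of -0.48. In the RT1-C/E region, to which RT1-CE4 belongs, RT1-CE13 was lowest of these at 253.9 ± 25.8 and 127.8 ± 14.4 (-0.61, or -0.45 under normexp correction) and RT1-CE5 highest at 686.1 ± 68.8 and 678.5 ± 68.1 (0.37). RT1-CE7, which follows RT1-CE4 in the gene order, had a ratio of -0.04. RT1-CE2, by the 1 of its 2 probes that passed, and RT1-CE16 were at -0.15 and -0.17, and RT1-CE3 and RT1-CE11 at -0.26 and -0.27. Of the nonclassical genes near RT1-S3, RT1-S2 had 2 probes at -0.02 and 0.31, RT1-N2 was at -0.04 and RT1-T24-4 at -0.16. RT1-M3-1 stood at -0.26, and RT1-M6-1 and RT1-T18 at 0.17 and 0.31. RT1-M6-1, RT1-T18 and RT1-CE5 each had another probe that was well above background on neither array, so their ratios rest on 1 probe.

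**Figure D3:**
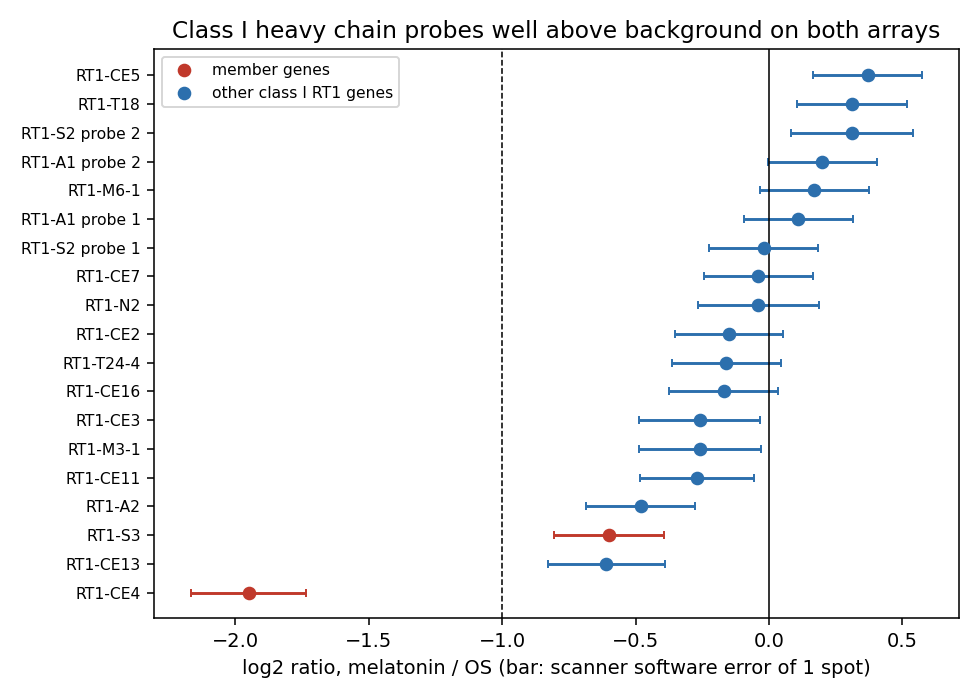
Log2 ratio of melatonin over OS for each class I heavy chain probe well above background on both arrays, members in red and other RT1 genes in blue. Bars are the scanner software's error of 1 spot, and the dashed line marks 2-fold lower. RT1-CE4 at -1.95 is the lowest probe, RT1-CE13 at -0.61 and RT1-S3 at -0.60 are next, and the highest is RT1-CE5 at 0.37.

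The RT1-CE4 promoter can be set beside those of its relatives. The 11-base NF-κB match in RT1-CE4 was found letter for letter in 5 of the 14 other measured class I genes that have a promoter in the table. The windows around it, nearly the same sequence, are shown as a description. Each has 35 bases on the strand of its gene, with the match in capitals. On chromosome 20 of GRCr8 they lie at chr20:3363350-3363384 (minus) for RT1-CE11, chr20:4907071-4907105 (plus) for RT1-A1, chr20:3265552-3265586 (minus) for RT1-CE16, chr20:3322902-3322936 (minus) for RT1-CE13 and chr20:4872685-4872719 (plus) for RT1-A2.
RT1-CE4: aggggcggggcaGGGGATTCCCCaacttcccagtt
RT1-CE11: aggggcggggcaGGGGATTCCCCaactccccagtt
RT1-A1: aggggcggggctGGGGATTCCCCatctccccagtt
RT1-CE16: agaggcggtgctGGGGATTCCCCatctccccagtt
RT1-CE13: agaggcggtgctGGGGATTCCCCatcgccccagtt
RT1-A2: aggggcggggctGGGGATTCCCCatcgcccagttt

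Compared position by position with RT1-CE4, the RT1-CE11 window was identical at 34 of 35 positions and had a log2 ratio of -0.27 against -1.95. RT1-A1 was identical at 32 and had a mean ratio of 0.16, RT1-CE16 at 30 with -0.17, RT1-CE13 at 29 with -0.61 and RT1-A2 at 28 with -0.48. The 6 other class I genes whose promoter held any match to the NF-κB consensus ranged from -0.61 to 0.37, and the 8 without one from -0.26 to 0.31. Each ratio belongs to a probe that may read several of these genes, so it cannot be assigned to 1 promoter. The exact interferon core was found in 1 of the 14, RT1-S2, whose window shares the match of RT1-S3. The mean ratio of RT1-S2 was 0.14 (probes at -0.02 and 0.31) against -0.60 for RT1-S3. A promoter without this exact pattern may still hold an interferon element of another form. Whether any of these sites bears on the ratios was not tested.

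The other lists of pathway genes had medians between -0.145 and 0.234, with single genes farther from 0. Of the interferon-induced proteasome subunits and activators 4 of 5 were measured, with a median log2 ratio of 0.075. Psmb10, an inducible catalytic subunit, was 1.56-fold higher, with scaled log2 signals of 2.85 and 3.49. Psme1 and Psme2, which form the proteasome activator, were at -0.05 and 0.10. The constitutive catalytic subunits Psmb5, Psmb6 and Psmb7 were at -0.07, 0.25 and -0.13. No measured gene of these lists passed 2-fold.

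Chaperones that fold and load class I molecules had a median of -0.145 over 4 measured of 6 with a probe. Calr, the lectin chaperone calreticulin of the loading complex, was 1.20-fold lower, and Canx (calnexin) and Pdia3, the disulfide isomerase of that complex, were at 0.01 and -0.03. Hspa5 (BiP), which binds many unfolded secretory proteins, had a melatonin signal lower by 1.59-fold. Of the cytosolic peptide trimming enzymes 5 of 5 with a probe were measured, with a median of 0.234, Tpp2 1.44-fold higher and Lap3 1.18-fold higher. Of the other partners of β2-microglobulin, Fcgrt, the neonatal Fc receptor, was at -0.05 and Cd1d1, which presents lipids, at 0.16, while Hfe and Mr1 passed the background limit in neither group.

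Genes that control class I transcription had a median log2 ratio of 0.066, near the 0.039 of all genes. Of 24 with a probe 19 were measured, 14 above 0 and 5 below, where 42.4% of all genes lay below, and none passed 2-fold. Irf1, an interferon-induced transcription factor, was 1.12-fold higher. Rfx5, Rfxap and Rfxank, subunits of the factor that binds the X box of class I promoters, were at 0.07, 0.16 and 0.23. Rela, an NF-κB subunit, was 1.20-fold lower. Ifnar1, a chain of the type I interferon receptor, was 1.67-fold lower, a ratio of -0.74 that turned to 0.04 under normexp correction.

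**Figure D4:**
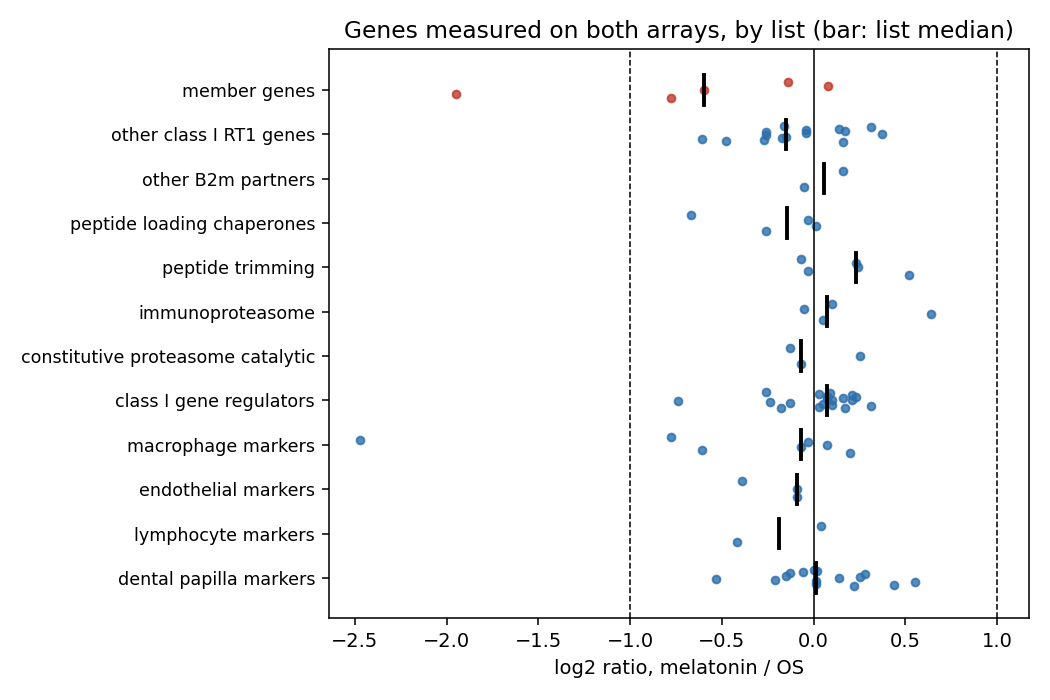
Log2 ratio of melatonin over OS for genes measured on both arrays, by list, with members in red, black bars at list medians and dashed lines at 2-fold. The member median is -0.60, the medians of the other lists lie between -0.19 and 0.23, and the lowest point outside the members is the macrophage gene Lyz2 at -2.47.

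Among markers of blood and vessel cells, which carry much class I, single genes were lower with melatonin. The macrophage and endothelial medians were -0.069 and -0.087, against 0.039 for all genes. In bulk RNA, fewer cells of a type and less RNA per cell cannot be told apart. Of 13 macrophage markers 7 were measured, 5 of them below 0, against 42.4% of all genes, with a median of -0.069. Summed scaled signals over the list were 3.77 with OS and 2.75 with melatonin. The sums include markers not well above background, and Lyz2 alone went from -0.33 to -2.8 on the scaled log2 scale. No fall of the whole list is read from them. Lyz2, a lysozyme made by macrophages, was lower by 5.54-fold, Laptm5 by 1.71-fold and Cd68 by 1.53-fold, and Tyrobp, above background with OS only, was at least 2.07-fold lower. Under normexp correction the log2 ratio of Lyz2 was -1.48, that of Laptm5 -0.32 and that of Cd68 -0.13. Csf1r was 1.15-fold higher, and Cd14, Fcer1g and Aif1 were near equal at -0.07, -0.03 and 0.07. Ptprc, the leukocyte surface protein CD45, Adgre1, Itgam, Cd163 and Mrc1 passed the background limit in neither group.

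Of 8 class II presentation markers none was measured on both arrays. Cd74, RT1-Db1, RT1-DMa and RT1-DMb were above background with OS only, and RT1-Da, RT1-Ba, RT1-Bb and Ciita were above it on neither. Cd74 was at least 1.26-fold lower with melatonin. RT1-Db1, RT1-DMa and RT1-DMb had bounds of 1.01, 0.926 and 0.774, too low to give a direction. The 8 markers had summed scaled signals of 0.506 with OS and 0.334 with melatonin. The second is made up of signals not well above background, so no ratio is read from the sums. Endothelial markers had 3 measured of 7 with a probe, all below 0, against 42.4% of all genes (median -0.087, summed signals 1.97 and 1.62). Sox18 was 1.31-fold lower, and Cdh5 and Erg were both at -0.09. Pecam1 and Kdr, above background with OS only, were at least 2.59-fold and 1.98-fold lower. Tie1 and Tek were above background on neither array. Lymphocyte markers had 2 of 6 measured, Cd3d at -0.42 and Cd3g at 0.04, with summed signals of 0.326 and 0.338 and with Cd3e, Cd4 and Cd8a among those above background on neither array. The endothelial and lymphocyte sums also include markers not well above background, so no ratio is read from them. The part of these cell types in the class I ratios was not tested.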

How the data were processed

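Total RNA of rat dental papilla cells was labelled with Cy3 and read on 2 single-colour Agilent arrays, 1 per group. Per the file headers, spot intensity comes from Agilent Feature Extraction 11.0.1.1 (array design 028282, annotation build rn4), whose processed signal is corrected for background. The deposited flags for control, outlier and well above background spots were used as given, as other values per spot. The authors' table of log2 values, with a normalization the labels do not state, correlated with the log2 scanner signal at 0.9997 and 0.9988 across probes. Both its columns had a median of 5.11, so its centring is unknown beyond that.

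Of 30367 probes, 937 outlier spots were left out. Processed signals were taken to log2, less each array's 75th percentile, averaged per probe and then over the probes of a gene well above background on both arrays. Symbols came from unversioned RefSeq accessions in a table of assembly GRCr8, matching 18000 of 30359 probes (59.3%). A fold for a gene above background on 1 array is a bound against the dim array's lowest signal well above background, or the gene's own where higher. With 1 array per group there was no test and no p-value, and precision is limited by the number of arrays. The members and lists were chosen with earlier results of these data known. Named genes were the members and, from each list, those past 2-fold or else up to 4 with the largest ratios. The text also names genes beyond that rule, chosen after their values were seen. These are other RT1 genes, Psmb5 to Psmb9, Psme1, Psme2, Irf1, the Rfx genes, dim markers and the other measured macrophage and endothelial markers. Motifs were searched on both strands in RefSeq promoters of GRCr8 (250 bases before to 50 after a start). The steps were tested on simulated data. Calculations used Python 3.11.15 with numpy 2.4.6, pandas 2.3.3 and statsmodels 0.14.6, and limma 3.58.1 in R 4.3.3 for normexp.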

Additional observations from a re-analysis of the deposited data

How the results depend on the processing

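Over 10 alternatives the log2 ratio of RT1-CE4 ranged from -1.97 to -1.63, that of B2m from -0.88 to -0.76 and that of RT1-S3 from -0.64 to -0.55. Tap2 ranged from 0.07 to 0.19 and Tapbp from -0.19 to 0.20 over the 9 alternatives that measured them. The member median was -0.60 and became -0.78 under the lower-quartile filter, which left 3 members. The count of members at least 2-fold lower, 1, became 2 with no filter on dim probes and 2 with the positive and significant flag, both through adding Tap1, and 3 at a 1.5-fold threshold. The count of other class I genes at least 1.5-fold lower, 1 (RT1-CE13), became 0 under normexp correction (offset 50) and 0 with the authors' values. Their median, -0.15, became 0.14 with no filter, where the median of all genes moved from 0.039 to 0.162. Of all genes 58 were 2-fold lower, and 35 under normexp, 229 with no filter, 37 under the lower-quartile filter and 155 with the positive and significant flag. The endothelial median moved from -0.09 to -0.26 under loess correction and the macrophage median from -0.07 to -0.23 with the positive and significant flag. Ifnar1 turned from -0.74 to 0.04 under normexp. The cause of these moves was not tested. For 98 single genes 906 of 956 values moved by less than the spot SD of 0.16. No paired analysis was possible because each group has 1 array. Without replicates, dim spots such as those of Tap1, Tap2 and Tapbp give no ratio finer than their own error.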
